A study of Mus musculus with 12 samples.

Results

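Type I interferon response genes are the genes that a cell switches on when type I interferon binds its receptor. A list of 43 of them, given by gene symbol, was followed across CD4 T cells from mouse spleen. The list was chosen with earlier results of these data known. Members of the Oas, Gbp, Irg, Ifi200, Ifitm, Irf and Slfn families were not in the list. Of the 43 genes, 42 were measured, out of 23185 genes with a probe set of their own on the array, and Ifi44 is not analysed here.

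The 12 arrays fell into 4 groups of 3. Control cells carried the genotype Lck-Cre-;Ikzf+/+ and are called Cre-, and cells labelled as lacking Ikaros carried Lck-Cre+;Ikzf-/- and are called Cre+. Lck-Cre is a Cre recombinase under the promoter of Lck, which is active in developing T cells, and Ikaros, the product of Ikzf1, is a zinc finger transcription factor of lymphocytes. Cells of each genotype were profiled at baseline (0 h) or after activation for 24 h with antibody to CD3 bound to the dish and antibody to CD28 in the medium, a stimulus that mimics antigen. There was no Lck-Cre+ group with intact Ikzf and no group cultured without stimulus for 24 h, so Cre expression and Ikaros loss cannot be told apart, nor can culture and stimulation. The labels do not say whether the 3 arrays of a group came from separate mice, so p-values measure the spread between these arrays. Unless a fit of fewer arrays is named, that spread was estimated per gene over all 12 arrays, baseline and activated together. The median SD of the listed genes was 0.149 (Cre-) and 0.0886 (Cre+) at baseline, and 0.283 and 0.221 after activation. A baseline p-value therefore also carries the spread of the activated arrays, and the reverse.

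Type I interferons are cytokines made when a cell senses foreign nucleic acid. They bind the receptor IFNAR, whose kinases JAK1 and TYK2 start a signal that ends in the transcription factor complex ISGF3, which binds the interferon-stimulated response element (ISRE) in promoters. The genes so induced include nucleic acid sensors, proteins that block viral replication, the ubiquitin-like modifier ISG15 with its enzymes, and parts of the antigen-processing machinery. Many are also expressed at a basal level in T cells that have met no virus, and several also respond to interferon gamma.

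All values are log2 expression, 1 value per gene and array, and a difference of 1 is a 2-fold change. A gene passed when its limma p-value, adjusted by Benjamini-Hochberg over the 23185 genes, was under 0.05. The array medians lay between 4.04 and 4.17. Markers of CD4 T cells (Cd3d, Cd3e, Cd3g, Cd4, Trac, Cd5 and Cd28) had a mean between 10.2 and 10.9 on every array, and all 7 lay above the array median throughout. Markers of B cells and plasmacytoid dendritic cells also lay above the array median at baseline, so this is no measure of purity. Ikzf1 itself read 10.54, 10.52 and 10.54 on the Cre- baseline arrays and 10.66, 10.29 and 10.13 on the Cre+ baseline arrays, a difference of -0.17 (SE 0.133) that did not pass. The sources used here do not give the deleted part of Ikzf1 or where its probes lie, so this value does not check the genotype. The third activated array of each genotype stood apart from the others in its cell cycle genes, whose mean was 8.89 and 8.51 there against 6.42 to 7.11 on the other 4 activated arrays. Results that rest on activated cells are therefore also given without these 2 arrays where that changes a call.

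Promoters of 4 members are shown because their genes carry the results below. Ifih1 and Parp12 differed between the genotypes in both states, and Ddx60 and Samd9l had the largest falls with activation, a pair chosen after the values were seen. Each window is 300 bases of RefSeq sequence (GRCm38.p6), from 250 bases before the first transcribed base to 50 after it, read 5′ to 3′ on the gene's strand. Capitals mark the ISRE core, searched as GAAANNGAA on both strands.

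Ifih1, chr2:62646206-62646505, minus strand: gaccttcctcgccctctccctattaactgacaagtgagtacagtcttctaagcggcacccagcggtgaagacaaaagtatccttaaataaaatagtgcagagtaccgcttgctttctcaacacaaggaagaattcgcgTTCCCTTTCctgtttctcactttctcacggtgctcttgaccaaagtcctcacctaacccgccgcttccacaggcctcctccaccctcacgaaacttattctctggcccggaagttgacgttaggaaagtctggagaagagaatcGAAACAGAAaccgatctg

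Parp12, chr6:39118300-39118599, minus strand: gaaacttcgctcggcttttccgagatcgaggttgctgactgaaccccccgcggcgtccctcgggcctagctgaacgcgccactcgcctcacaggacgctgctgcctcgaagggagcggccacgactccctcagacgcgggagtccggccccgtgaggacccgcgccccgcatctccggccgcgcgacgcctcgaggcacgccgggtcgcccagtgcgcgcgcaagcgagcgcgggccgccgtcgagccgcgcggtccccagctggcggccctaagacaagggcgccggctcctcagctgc

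Ddx60, chr8:61927837-61928136, plus strand: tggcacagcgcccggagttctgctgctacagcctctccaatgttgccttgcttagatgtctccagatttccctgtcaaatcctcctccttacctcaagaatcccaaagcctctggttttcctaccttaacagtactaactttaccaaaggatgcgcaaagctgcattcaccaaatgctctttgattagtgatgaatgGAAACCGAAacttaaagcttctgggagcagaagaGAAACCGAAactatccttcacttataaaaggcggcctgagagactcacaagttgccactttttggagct

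Samd9l, chr6:3399522-3399821, minus strand: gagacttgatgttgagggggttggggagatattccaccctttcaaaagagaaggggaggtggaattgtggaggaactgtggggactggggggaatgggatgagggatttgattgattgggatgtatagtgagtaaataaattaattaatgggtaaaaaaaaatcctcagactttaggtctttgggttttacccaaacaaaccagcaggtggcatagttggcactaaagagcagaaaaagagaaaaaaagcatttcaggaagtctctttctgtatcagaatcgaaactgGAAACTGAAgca

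With the first transcribed base counted as 0, the matches begin at -112 and 32 in Ifih1, at -53 and -19 in Ddx60 and at 38 in Samd9l, and the letters do not occur in the Parp12 window. Such windows were found for 32 of the 42 measured members, 40 windows in all because some genes have several starts. The ISRE core was in 15 of the 40 (37.5%), from 14 genes, against 8.56% of the 32851 promoters of the table. The gamma-activated site TTCNNNGAA was in 7 (17.5%, against 8.3%) and the Ikaros core TGGGAA in 14 (35%, against 25.6%). None of the windows printed above holds the Ikaros core. The windows of Psmb9 and Tap1 overlap on opposite strands, and their Ikaros core matches (at -189 and -42) are the same bases, counted for both. Matches of different motifs overlapped in Bst2 (ISRE core and gamma-activated site) and in Psmb8 and Eif2ak2 (gamma-activated site and Ikaros core). A match is a description of letters and no evidence of binding.

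At baseline, 2 interferon response genes were higher in Cre+ than in Cre- cells and none was lower. Parp12, a gene of an antiviral ADP-ribosyltransferase, was 2.97-fold higher (log2 1.57), and Ifih1, a gene of an RNA sensor, was just over 2-fold higher (log2 1.10). The 2 genes were 4.76% of the 42 members, while 0.552% of all genes passed in this comparison, 0.492% as higher and 0.0604% as lower. The median difference of the members was 0.28, against 0.00175 over all genes, and 35 members had a difference above 0 and 7 below, also after median centring or quantile normalization of the arrays. All 3 Cre+ arrays lay above all 3 Cre- arrays for 18 members (42.9%; 8.82% of all genes) and below them for 3 (7.14%; 7.42% of all genes). At an unadjusted p under 0.05 there were 11 members higher and 0 lower (6.93% of all genes in either direction). A fit of the 6 baseline arrays alone passed 5 members (1.08% of all genes), adding Eif2ak2, Mx2 and Usp18. With arrays weighted by how closely they followed their group means (array weights) 4 passed (1.38%), adding Mx2 and Parp14. Without the 2 activated arrays that stood apart 3 passed (1.15%), adding Mx2.

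After activation the same 2 genes were higher in Cre+ cells and none was lower. Parp12 was 2.88-fold and Ifih1 2.76-fold higher, again 4.76% of the members, where 0.729% of all genes passed, 0.63% as higher and 0.0992% as lower. The median difference was 0.20, against -0.0137 over all genes. The Cre+ arrays lay wholly above the Cre- arrays for 11 members (26.2%; 5.25% of all genes) and wholly below for 1 (2.38%; 5.51%). At an unadjusted p under 0.05 there were 10 members higher and 2 lower (7.51% of all genes). With the third activated arrays left out, 6 members passed, all higher (0.988% of all genes passed): Ifih1 (1.65), Parp12 (1.70), Eif2ak2 (1.13), Mx2 (1.09), Herc6 (0.87) and Tor3a (0.77). Leaving out that array of Cre- cells alone also gave 6, for which the share of all genes is not given here. In a fit of the 6 activated arrays alone 0 of 42 passed (0.0388% of all genes), with adjusted p = 0.109 for Parp12 and 0.157 for Ifih1. With array weights 21 passed, 20 higher and 1 lower (10.4% of all genes). These weights were estimated from the same values. They were 0.859, 3.08 and 0.235 for the Cre- and 3.79, 0.392 and 0.517 for the Cre+ activated arrays. Most of the weight of each activated group thus lay on 1 array.

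**Figure D1:**
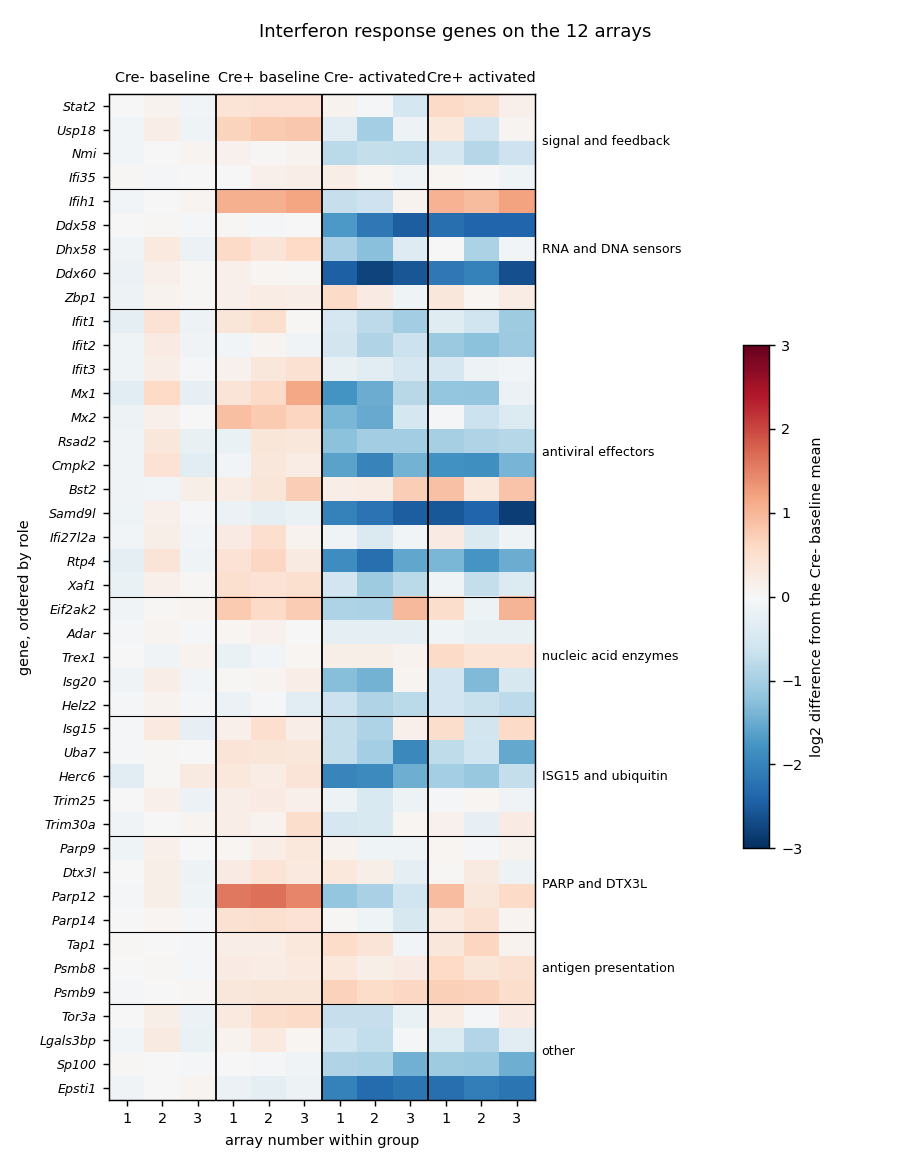
Expression of the 42 measured interferon response genes on each of the 12 arrays, as the log2 difference from the mean of the 3 Cre- baseline arrays (red above, blue below), with rows ordered by role and columns by group and array number. Parp12 and Ifih1 are the reddest rows of Cre+ baseline, and Ddx60, Samd9l, Ddx58, Epsti1 and Rtp4 are dark blue on all 6 activated arrays.

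**Figure D2:**
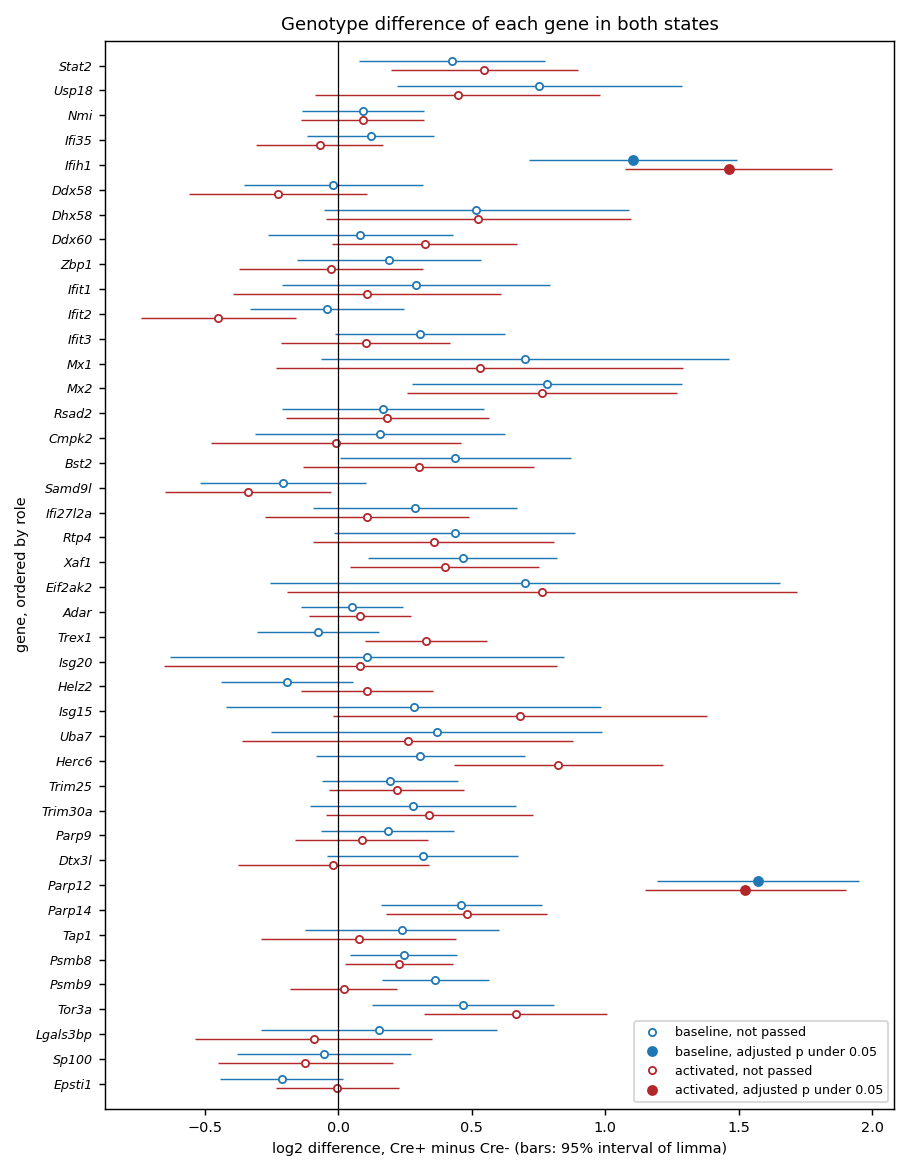
Difference between the genotypes (Cre+ minus Cre-, log2) of each member at baseline (blue) and after activation (red), with 95% intervals from limma on 11.55 degrees of freedom; filled points passed. Parp12 and Ifih1 are the filled points in both states, and most other points lie between 0 and 1.

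Parp12 encodes a mono-ADP-ribosyltransferase that interferes with viral protein production. It read 5.99, 6.24 and 5.94 on the Cre- baseline arrays and 7.64, 7.71 and 7.52 on the Cre+ baseline arrays. The groups were far apart, by 1.57 (SE 0.173, limma adjusted p = 0.00127), and the call held in all 23 alternative settings. After activation it read 4.90, 5.07 and 5.45 in Cre- cells and 6.99, 6.39 and 6.62 in Cre+ cells. Every Cre+ array was again above every Cre- array, with a difference of 1.53 (SE 0.173, limma adjusted p = 0.00164). Its expression fell with activation by nearly the same amount in both genotypes, by 0.91 in Cre- and by 0.96 in Cre+ cells, so activated Cre+ cells stayed above resting Cre- cells on all 3 arrays.

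Parp14, Parp9 and Dtx3l are neighbours of one another in the RefSeq gene order. Parp14 is another ADP-ribosyltransferase, and Parp9 and Dtx3l encode an inactive PARP and its partner ubiquitin ligase. Parp14 read 8.95, 8.99 and 8.87 in Cre- and 9.40, 9.42 and 9.38 in Cre+ baseline cells. These 2 groups did not overlap, and the difference of 0.46 (SE 0.138) did not pass (limma adjusted p = 0.316). After activation Parp14 read 8.98, 8.80 and 8.45 in Cre- and 9.24, 9.40 and 9.02 in Cre+ cells, 0.48 apart (limma adjusted p = 0.222) with no overlap. Dtx3l differed by 0.32 at baseline and -0.02 after activation, and Parp9 by 0.19 and 0.09, and neither passed. With activation Parp9, Dtx3l and Parp14 moved by -0.26 to 0.07 in the 2 genotypes, with no call.

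Among the 5 nucleic acid sensors only Ifih1 passed between the genotypes, in both states (0.552% of all genes at baseline and 0.729% after activation). At baseline 3 sensors, Ifih1, Dhx58 and Zbp1, had all Cre+ arrays above all Cre- arrays (60%, against 8.82% of all genes). After activation 1 did (20%, against 5.25%). Ifih1 encodes MDA5, a helicase that senses long double-stranded RNA. It read 7.15, 7.21 and 7.31 on the Cre- baseline arrays and 8.29, 8.29 and 8.40 on the Cre+ baseline arrays, a difference of 1.10 (SE 0.178, limma adjusted p = 0.0186). The groups did not overlap, and the call was lost when any 1 of the 6 baseline arrays was left out (adjusted p up to 0.101). After activation Ifih1 read 6.54, 6.61 and 7.33 in Cre- cells and 8.26, 8.18 and 8.43 in Cre+ cells, which set the groups 1.46 apart (SE 0.178, limma adjusted p = 0.00253). The third activated Cre- array was the highest of its group and still below all Cre+ arrays. Its change with activation was -0.40 in Cre- and -0.04 in Cre+ cells, and neither passed. Without the third activated arrays the change in Cre- cells was -0.65 and passed (limma adjusted p = 0.00165).

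Ddx58 encodes RIG-I, which senses RNA with a 5′ triphosphate, and it showed the opposite picture, with overlapping genotypes and a large fall. It read 9.02, 9.07 and 9.0 in Cre- and 9.06, 8.96 and 9.01 in Cre+ cells at baseline. After activation it read 7.31, 6.89 and 6.56 in Cre- and 6.78, 6.66 and 6.65 in Cre+ cells. The fall was 4.31-fold in Cre- cells (log2 -2.11, SE 0.153, limma adjusted p = 5.05e-06) and 4.98-fold in Cre+ cells (-2.32, limma adjusted p = 2.21e-06). The genotype difference was -0.02 at baseline and -0.23 after activation, and it did not pass.

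Ddx60, a helicase gene linked to RIG-I-like signalling, had the largest fall of all members in Cre- cells. It read 6.47, 6.82 and 6.68 in Cre- and 6.81, 6.71 and 6.68 in Cre+ baseline cells, and 4.20, 3.88 and 4.08 in Cre- and 4.50, 4.62 and 4.01 in Cre+ activated cells. Expression fell 6.06-fold in Cre- cells (-2.60, SE 0.158, limma adjusted p = 1.42e-06) and 5.13-fold in Cre+ cells (-2.36, limma adjusted p = 2.46e-06). Baseline and activated arrays were thus far apart in both genotypes, while the genotypes overlapped in each state.

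Dhx58 encodes LGP2, the third RIG-I-like receptor, and Zbp1 a sensor of Z-form nucleic acid. Dhx58 fell by 0.87 in both genotypes (SE 0.261; limma adjusted p = 0.0371 in Cre- and 0.0353 in Cre+), and these calls were lost in 12 and 7 of the 23 alternative settings. Its genotype difference was 0.52 in both states and did not pass, although at baseline the arrays did not overlap. Zbp1 changed with activation by 0.23 and 0.01, with no call. Its baseline arrays did not overlap between the genotypes either, with a difference of 0.19 and no call.

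**Figure D3:**
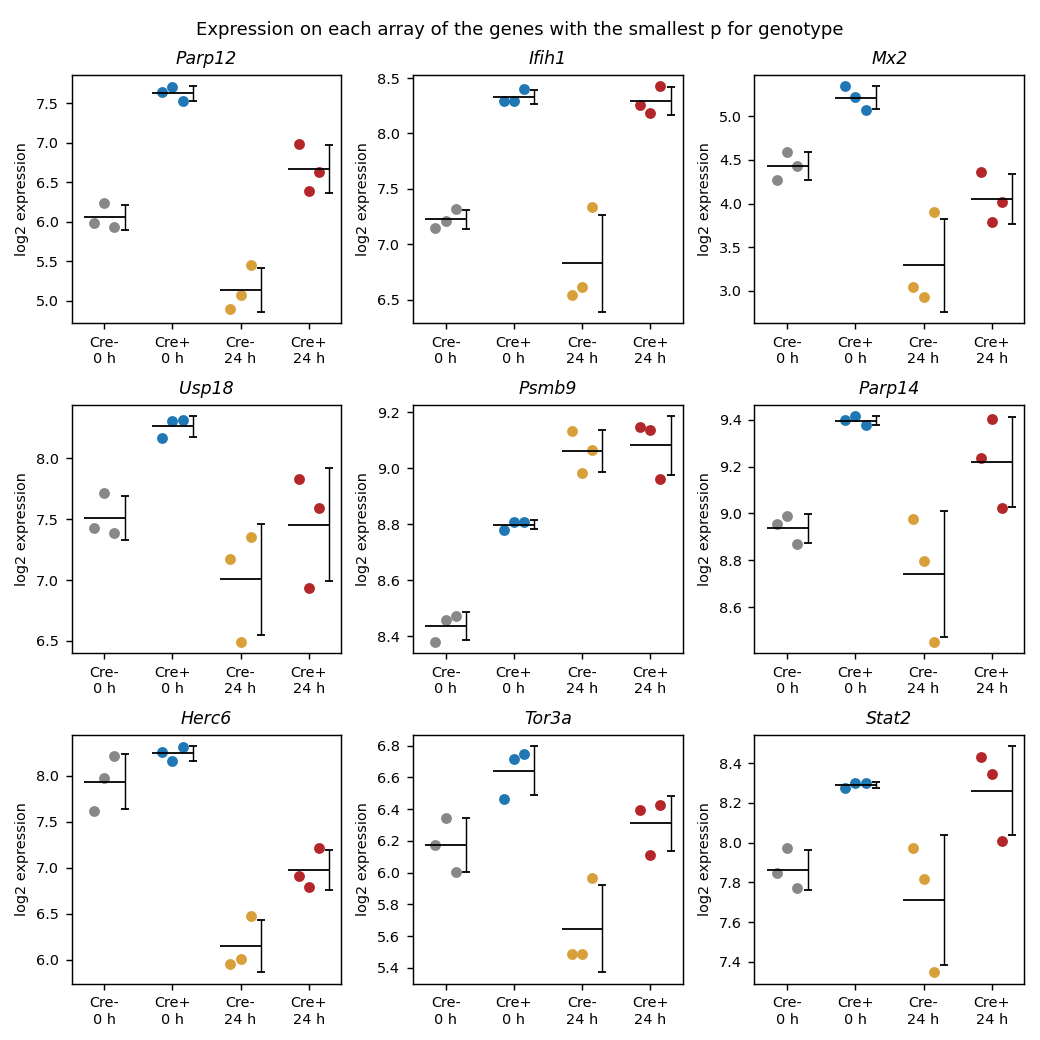
Log2 expression on each array of the 9 members that passed between the genotypes or had the smallest p among those that did not, in the 4 groups; horizontal lines are means and bars the SD of 3 arrays, and each axis has its own range that does not start at 0. In Parp12 and Ifih1 all Cre+ arrays lie above all Cre- arrays of the same state, while Mx2 and Usp18 overlap after activation.

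Of the 4 genes of interferon signalling and feedback, none passed between the genotypes. Stat2, a subunit of ISGF3, read 7.85, 7.97 and 7.77 in Cre- and 8.28, 8.30 and 8.30 in Cre+ baseline cells, with Cre+ higher by 0.43 (SE 0.159, limma adjusted p = 0.531). After activation it read 7.98, 7.82 and 7.35 in Cre- and 8.43, 8.34 and 8.01 in Cre+ cells, so that Cre+ was higher by 0.55 (limma adjusted p = 0.23). The genotypes did not overlap in either state. Usp18 encodes the protease that removes ISG15 and also dampens signalling from IFNAR. It read 7.43, 7.72 and 7.38 in Cre- and 8.17, 8.31 and 8.32 in Cre+ baseline cells, and the difference was 0.75 (SE 0.244, limma adjusted p = 0.386) without overlap. After activation its arrays overlapped, from 6.49 to 7.36 in Cre- and from 6.94 to 7.83 in Cre+ cells. Usp18 fell with activation by 0.81 in Cre+ cells (limma adjusted p = 0.0356, lost in 8 settings), and its change in Cre- cells was -0.50, with no call.

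Nmi and Ifi35 encode partner proteins that bind each other. Nmi fell by 0.75 in both genotypes (SE 0.105; limma adjusted p = 0.000573 in Cre- and 0.000519 in Cre+) and differed by 0.09 between them in both states. Ifi35 stayed between 7.74 and 8.09 on all 12 arrays and passed in no comparison.

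Among the 12 measured antiviral effectors, 9 fell with activation in Cre- cells and 10 in Cre+ cells, and none rose, where 9.1% and 10.6% of all genes fell. Their median change was -0.96 in Cre- and -1.09 in Cre+ cells. Between the genotypes none of the 12 passed in either state by limma, while at an unadjusted p under 0.05 there were 3 higher and 0 lower at baseline (6.93% of all genes) and 2 higher and 2 lower after activation (7.51%).

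Samd9l encodes a protein that restricts translation and viral growth. It read 7.62, 7.91 and 7.72 in Cre- and 7.58, 7.49 and 7.56 in Cre+ baseline cells, and 5.72, 5.54 and 5.28 in Cre- and 5.22, 5.38 and 4.94 in Cre+ activated cells. It fell 4.71-fold in Cre- (-2.24, SE 0.142, limma adjusted p = 1.84e-06) and 5.16-fold in Cre+ cells (-2.37, limma adjusted p = 1.17e-06). All Cre+ baseline arrays were below all Cre- baseline arrays, the reverse of most members, by -0.21 with no call. After activation the difference was -0.34 with no call, and Samd9l was the 1 member called lower in Cre+ cells with array weights.

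Rtp4 encodes a transporter protein with antiviral effects. It read 7.37, 8.03 and 7.52 in Cre- and 8.07, 8.26 and 7.90 in Cre+ baseline cells, and 5.77, 5.37 and 6.08 in Cre- and 6.27, 5.88 and 6.15 in Cre+ activated cells. The genotypes overlapped in both states, and the fall was 1.90 in Cre- (SE 0.206, limma adjusted p = 9.36e-05) and 1.98 in Cre+ cells (limma adjusted p = 6.07e-05).

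Cmpk2, a mitochondrial nucleotide kinase gene, and Rsad2, which encodes viperin, an enzyme that makes a chain-terminating nucleotide, are adjacent in the genome. Cmpk2 read 6.11, 6.65 and 5.89 in Cre- and 6.14, 6.55 and 6.43 in Cre+ baseline cells, and 4.62, 4.22 and 4.79 in Cre- and 4.41, 4.37 and 4.81 in Cre+ activated cells. It fell by 1.68 and 1.84, and Rsad2 by 1.10 and 1.09. The genotype differences of both genes lay between -0.01 and 0.18 and did not pass.

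Mx1 and Mx2 encode dynamin-like GTPases that block viral nucleocapsids. Mx2 read 4.27, 4.59 and 4.42 in Cre- and 5.34, 5.22 and 5.07 in Cre+ baseline cells, which do not overlap, and the difference was 0.78 (SE 0.231, limma adjusted p = 0.305). After activation it read 3.05, 2.93 and 3.90 in Cre- and 4.36, 3.79 and 4.01 in Cre+ cells, where the third Cre- array reached into the Cre+ range. All of these activated values except 4.36 lay below the median of their array. Mx2 fell with activation by 1.14 and 1.16. Mx1 fell by 1.37 and 1.54 and was the member with the widest spread at baseline, with an SD of 0.512 in Cre- and 0.403 in Cre+ cells.

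The Ifit genes encode proteins that bind foreign RNA, and Ifit2 and Ifit3 lie next to each other. Ifit1 fell by 0.78 in Cre- cells (a call lost in 9 settings, with -0.65 and adjusted p = 0.0646 without the third activated arrays) and by 0.96 in Cre+ cells, and Ifit2 fell by 0.69 and by 1.10. Ifit3 fell by 0.56 in Cre+ cells, and its change in Cre- cells was -0.35, with no call. Ifit2 was the 1 member whose activated Cre+ arrays (5.80, 5.69 and 5.83) all lay below the activated Cre- arrays (6.38, 6.01 and 6.28), by -0.45 with limma adjusted p = 0.235.

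Xaf1, which encodes an antagonist of the apoptosis inhibitor XIAP, fell by 0.82 and by 0.89. Bst2, the gene of tetherin, which holds budding virions at the cell surface, differed by 0.38 and 0.24 with activation and did not pass. Ifi27l2a differed by -0.21 and -0.39 with no call.

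The enzymes that act on nucleic acid moved little or unevenly. Helz2, a helicase gene, fell by 0.78 in Cre- (limma adjusted p = 0.00068) and by 0.48 in Cre+ cells (limma adjusted p = 0.0106). Adar encodes an RNA-editing deaminase, and it fell by 0.27 in Cre- cells, a call at adjusted p = 0.0497 that was lost in 20 of 23 settings (adjusted p = 0.101 without the third activated arrays). Its change in Cre+ cells was -0.24 (limma adjusted p = 0.0727). Trex1 encodes a DNA exonuclease that clears cytosolic DNA, and it rose by 0.55 in Cre+ cells (SE 0.105, limma adjusted p = 0.00343), from 4.21, 4.33 and 4.49 to 5.0, 4.84 and 4.84. In Cre- cells it went from 4.41, 4.31 and 4.54 to 4.60, 4.59 and 4.52, a difference of 0.14 with no call.

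Eif2ak2 encodes PKR, which halts translation on sensing double-stranded RNA, and its activated values split by array. It read 6.06, 6.03 and 7.96 in Cre- and 7.51, 6.83 and 7.99 in Cre+ activated cells, so the third array of each genotype, the one with high cell cycle genes, was the highest. The SD of 1.11 in activated Cre- cells was the widest of any member in any group. At baseline the genotypes did not overlap (6.87, 7.02 and 7.05 against 7.76, 7.55 and 7.74), and the difference of 0.70 had a limma adjusted p of 0.9. In a fit of the 6 baseline arrays alone Eif2ak2 passed with adjusted p = 0.0193. Isg20, an exonuclease gene, was also highest on that array, with 6.48, 6.33 and 7.83 in Cre- activated cells, and passed nowhere. Without the third activated arrays Eif2ak2 changed by -0.94 in Cre- cells and Isg20 by -1.35 in Cre- and -1.06 in Cre+ cells, and all 3 changes passed (limma adjusted p = 0.00385, 0.000712 and 0.00258).

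Of the 5 genes of ISG15 and ubiquitin conjugation, Uba7 and Herc6 fell in both genotypes. Herc6 encodes the ligase that attaches ISG15 to proteins in the mouse, and Uba7 the enzyme that activates ISG15. Herc6 read 7.61, 7.98 and 8.21 in Cre- and 8.25, 8.15 and 8.31 in Cre+ baseline cells, and 5.96, 6.01 and 6.48 in Cre- and 6.91, 6.79 and 7.22 in Cre+ activated cells. It fell by 1.78 in Cre- (SE 0.179, limma adjusted p = 5.7e-05) and by 1.27 in Cre+ cells (limma adjusted p = 0.000542). After activation the genotypes did not overlap, and the difference of 0.82 missed the threshold (SE 0.179, limma adjusted p = 0.0771).

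Uba7 fell by 1.22 and by 1.33, with the lowest values on the third activated arrays (6.86 and 7.26). Isg15 itself ranged from 4.10 to 5.18 in activated Cre- and from 4.48 to 5.61 in activated Cre+ cells and passed in no comparison. Trim25, the ligase that activates RIG-I, and Trim30a passed nowhere, with changes of -0.30 to -0.23 with activation.

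Antigen-processing genes were the group in which a member rose with activation in both genotypes. Tap1 encodes a subunit of the peptide transporter, and Psmb8 and Psmb9 encode subunits of the immunoproteasome. The 3 genes stand side by side in the RefSeq gene order. Psmb9 read 8.38, 8.46 and 8.47 in Cre- and 8.78, 8.81 and 8.81 in Cre+ baseline cells, with Cre+ higher by 0.36 (SE 0.0915, limma adjusted p = 0.175) with no overlap. It rose with activation by 0.62 in Cre- (limma adjusted p = 0.00075) and by 0.28 in Cre+ cells (limma adjusted p = 0.048, a call lost in 15 of 23 settings), and activated arrays of both genotypes lay between 8.96 and 9.15. Psmb8 and Tap1 differed by 0.24 each between the genotypes at baseline, with no overlap and no call.

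Of the remaining 4 members, Sp100 and Epsti1 fell in both genotypes. Epsti1, a gene first found through its response to stromal cells, read 8.13, 8.25 and 8.31 in Cre- and 8.05, 7.93 and 8.08 in Cre+ baseline cells, and 6.19, 5.93 and 6.05 in Cre- and 5.96, 6.16 and 6.03 in Cre+ activated cells. It fell 4.52-fold in Cre- (-2.18, SE 0.105, limma adjusted p = 3.1e-07) and 3.91-fold in Cre+ cells (-1.97, limma adjusted p = 5.22e-07), and all Cre+ baseline arrays were below the Cre- baseline arrays. Sp100 encodes a component of nuclear bodies and fell by 1.10 and by 1.16.

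Tor3a, a torsin ATPase gene, read 6.18, 6.34 and 6.01 in Cre- and 6.47, 6.71 and 6.75 in Cre+ baseline cells, and 5.49, 5.49 and 5.97 in Cre- and 6.40, 6.11 and 6.42 in Cre+ activated cells. The genotypes did not overlap in either state, with differences of 0.47 (limma adjusted p = 0.412) and 0.66 (SE 0.156, limma adjusted p = 0.109). Tor3a fell with activation by 0.53 in Cre- cells, a call lost in 9 settings. Lgals3bp, the gene of a secreted glycoprotein, fell by 0.69 in Cre+ cells, a call lost in 8 settings.

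Over all members, 21 of 42 genes were lower and 1 was higher in activated than in baseline Cre- cells. In Cre+ cells 22 were lower and 2 higher. In Cre- cells 52.4% of the members passed, against 18.5% of all genes, of which 9.39% rose and 9.1% fell. In Cre+ cells 57.1% passed, against 20.7% of all genes, of which 10.1% rose and 10.6% fell. The median change was -0.52 in Cre- and -0.63 in Cre+ cells, against -0.00473 and -0.0203 over all genes. The activated arrays lay wholly below the baseline arrays for 23 members in Cre- (54.8%; 17.4% of all genes) and for 26 in Cre+ cells (61.9%; 19.3% of all genes). Falls of at least 2-fold passed in 12 and 13 members (3.58% and 3.79% of all genes). The 2 activation comparisons share no array, and 19 members fell in both, 90.5% of those that fell in Cre- and 86.4% of those that fell in Cre+ cells. Without the third activated arrays 25 passed in each genotype, 23 lower and 2 higher (16.6% of all genes in Cre- and 21.3% in Cre+). In Cre- cells that setting added Ifih1, Eif2ak2, Isg20 and Lgals3bp (-0.66) as lower and Tap1 (0.47) as higher and lost Adar and Ifit1, and in Cre+ cells it added Isg20.

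**Figure D4:**
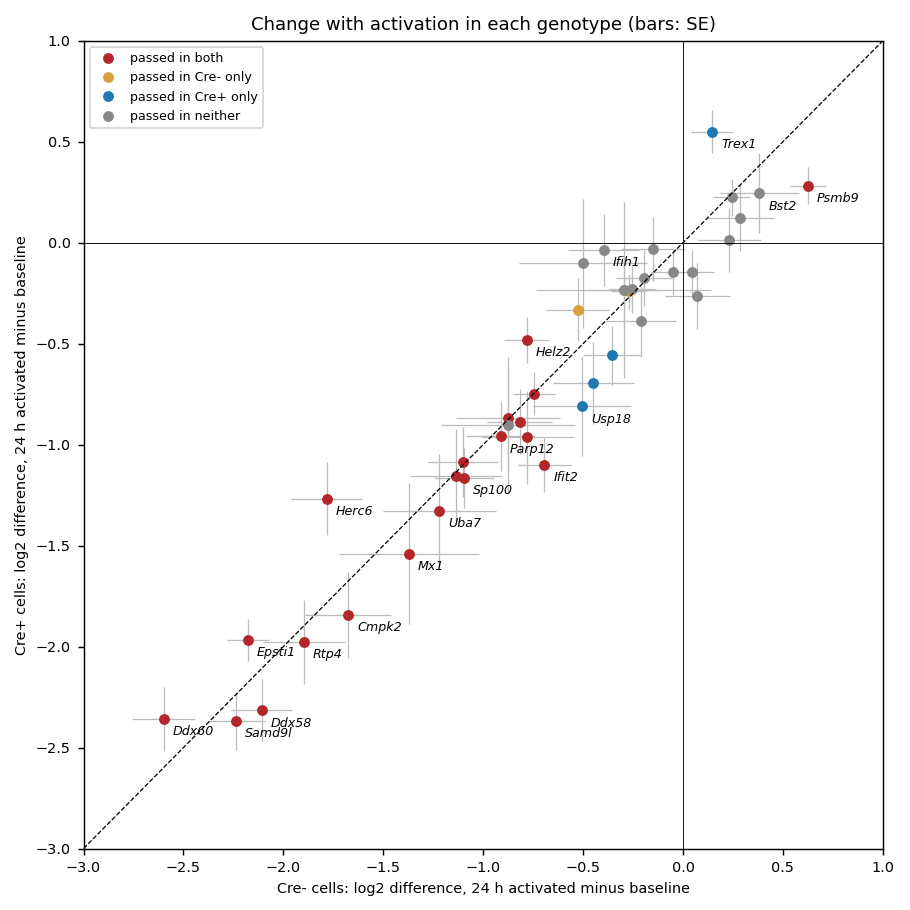
Change with activation (24 h activated minus baseline, log2) of each member in Cre- cells (horizontal axis) and Cre+ cells (vertical axis), with bars of 1 SE; the dashed line marks equal change and colours show in which genotype a gene passed. Points lie along the line from Ddx60 and Samd9l at the lower left to Psmb9 and Trex1 at the upper right.

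The 2 activation responses were then compared directly through the interaction term. By limma 0 of 42 members passed, where 0.00863% of all genes did, and the differences ran from -0.41 to 0.52. At an unadjusted p under 0.05 there were 1 higher, Trex1 (0.41), and 1 lower, Psmb9 (-0.34), where 4.7% of all genes reached that p. Herc6 had the largest difference, 0.52, with a 95% interval from -0.04 to 1.07. For Parp12 the difference was -0.05 (95% interval -0.58 to 0.49) and for Ifih1 0.36 (-0.19 to 0.91), and both intervals include 0.

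Genes with an ISRE core in their promoter window did not hold a larger share of the falls. Of the 14 such members 6 fell in Cre- cells and 6 in Cre+ cells. Of the 18 members whose windows lack those letters 10 and 11 fell, where 9.1% and 10.6% of all genes fell. Between the genotypes 1 gene of each kind was higher at baseline, Ifih1 and Parp12, where 0.492% of all genes were. The medians were 0.281 and 0.154. These counts are a description without a test.

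The other genes of the pathway were read from a list, of which 35 were measured. At baseline 0 of 35 passed between the genotypes by limma (0.552% of all genes), with 1 lower and 0 higher at an unadjusted p under 0.05 (6.93% of all genes). After activation 1 passed, Ifng, where 0.729% of all genes did. With activation 4 rose and 8 fell in Cre- cells (34.3%, against 18.5% of all genes), and 5 rose and 10 fell in Cre+ cells (42.9%, against 20.7%).

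Among the ligands, Ifnb1, the gene of interferon beta, read between 1.83 and 2.33 on all 12 arrays, below every array median, and passed nowhere. The interferon alpha genes Ifna4, Ifna5, Ifna9 and Ifna11 passed nowhere either, and their probe sets belong to a family of near-identical copies, so their values are uncertain. Ifng encodes interferon gamma, which induces several of the members through its own receptor. It read 3.63, 3.89 and 3.46 in Cre- and 3.70, 3.82 and 3.42 in Cre+ baseline cells, and 7.30, 6.71 and 7.41 in Cre- and 8.86, 9.24 and 8.85 in Cre+ activated cells. The baseline groups overlapped, and after activation Ifng was 1.84 higher in Cre+ cells (SE 0.196, limma adjusted p = 0.00108), a call lost when the 6 activated arrays were fitted by themselves. The difference of its activation responses did not pass, and without the third activated arrays it was 2.06 and passed (limma adjusted p = 0.048).

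Among receptors and kinases, Ifnar2 fell by 0.54 and by 0.51 and Jak1 by 0.66 in both genotypes (calls lost in 3 settings each for Ifnar2, and in 8 and 7 for Jak1). Ifnar1 changed by -0.60 and -0.54 and did not pass, although it did without the third activated arrays (-0.35 and -0.39), and Jak2, which serves the interferon gamma receptor, rose by 0.68 and 0.85. Among transcription factors, Irf7, which amplifies interferon production, fell by 1.63 and by 1.70 (limma adjusted p = 0.000173 and 0.000117). Irf3 fell by 0.39 in Cre- and by 0.51 in Cre+ cells, and the call in Cre- cells was lost in 12 of 23 settings (-0.31 and adjusted p = 0.111 without the third activated arrays). Irf9, the DNA-binding subunit of ISGF3, fell by 0.71 in Cre+ cells (a call lost in 6 settings) and changed by -0.35 with no call in Cre- cells. Stat3 rose by 0.39 in Cre+ cells, a call lost in 8 settings.

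Feedback inhibitors moved in both directions. Socs1, which blocks JAK kinases, rose by 1.77 in Cre- and by 1.59 in Cre+ cells (limma adjusted p = 1.68e-05 and 2.96e-05), and the phosphatase gene Ptpn2 rose by 0.52 and 0.63. Ptpn6, another phosphatase gene, fell by 0.47 and by 0.61, and Pias1 fell by 0.56 in Cre+ cells, a call lost in 11 of 23 settings. Socs3 passed in Cre+ cells without the third activated arrays alone (-0.67). The endosomal sensor genes Tlr3, Tlr7 and Tlr9 fell in both genotypes, Tlr7 by 1.81 and by 1.66 and Tlr9 by 1.90 and by 1.61. Tlr3 read 2.48 to 3.32 at baseline and 1.85 to 2.01 after activation, below the median of every array. Tlr7 and Tlr9 are known chiefly from B cells and plasmacytoid dendritic cells.

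Markers of other spleen cells moved with activation as well. Fewer cells of a type and less RNA per cell cannot be told apart in such bulk samples. Of 13 measured B cell markers 12 fell in Cre- and 10 in Cre+ cells, of 13 myeloid markers 11 and 10, and of 8 markers of plasmacytoid dendritic cells 6 and 6. Falls were not limited to other cells, since of the 7 CD4 T cell markers 2 fell in Cre- and 5 in Cre+ cells. Over all genes 9.1% fell in Cre- and 10.6% in Cre+ cells. The log2 of the summed B cell level was 12.9 to 13.1 and 12.7 to 13.0 at baseline (Cre- and Cre+), and 9.93 to 11.3 and 10.7 to 12.0 after activation. For the 7 CD4 T cell markers it was 13.89 to 13.95 and 13.98 to 14.03, and then 13.29 to 13.56 and 13.27 to 13.63. For myeloid cells it was 10.1 to 10.5 and 10.4 to 10.9, and then 8.53 to 8.70 and 8.79 to 8.92. For plasmacytoid dendritic cells, strong producers of type I interferon, it was 10.4 to 10.7 and 10.4 to 11.6, and then 9.51 to 10.0 and 9.66 to 10.1. Siglech, their defining marker, fell by 4.14 and by 3.94, to between 3.21 and 4.06 on the activated arrays, each below that array's median. Bst2 belongs both to this marker list and to the interferon response genes, and it did not fall. Without Bst2 the sum of the other 7 markers was 9.89 to 10.2 and 9.77 to 11.2 at baseline, and 7.89 to 8.37 and 8.10 to 8.42 after activation. How much these cells contribute to the falls of the interferon response genes was not tested.

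Between the genotypes, fewer markers of other cells passed. At baseline 1 of 13 myeloid markers passed, Itgam (2.73), and none of the B cell or plasmacytoid dendritic cell markers did by limma (0.552% of all genes). The myeloid markers had a median of -0.06, with 4 above 0 and 9 below. Itgam averaged 5.77 in Cre- and 8.49 in Cre+ baseline cells and is part of the summed myeloid level above. At an unadjusted p under 0.05 (6.93% of all genes in either direction), 1 B cell marker was lower in Cre+ cells. At that p 2 markers of plasmacytoid dendritic cells were higher, and 1 of them is Bst2. All 13 B cell markers were below 0 (median -0.18), with all 3 Cre+ arrays below the Cre- arrays for 6 (46.2%, against 7.42% of all genes). The plasmacytoid dendritic cell markers had a median of 0.29, beside 0.28 for the interferon response genes, and 6 of 8 were above 0. The 2 below were Siglech (mean 7.66 in Cre- and 7.60 in Cre+ baseline cells) and Lair1 (6.62 and 6.55). Bst2 (0.44) enters both medians, so they are not independent. The mean of the plasmacytoid dendritic cell markers was 8.22 on the third Cre+ baseline array and 6.96 to 7.39 on the other 5, while Parp12 on that array (7.52) was the lowest of its group and Ifih1 (8.40) the highest. After activation all 13 B cell markers were above 0 in Cre+ against Cre- cells, with a median of 0.70, 5 higher at an unadjusted p under 0.05 (7.51% of all genes in either direction) and none passing. Markers of CD8 T cells, NK cells and erythroid cells had means of 5.97 to 7.33, 4.86 to 5.69 and 1.85 to 2.45 over the 12 arrays. The part of any of these markers in the genotype differences was not tested.

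**Figure D5:**
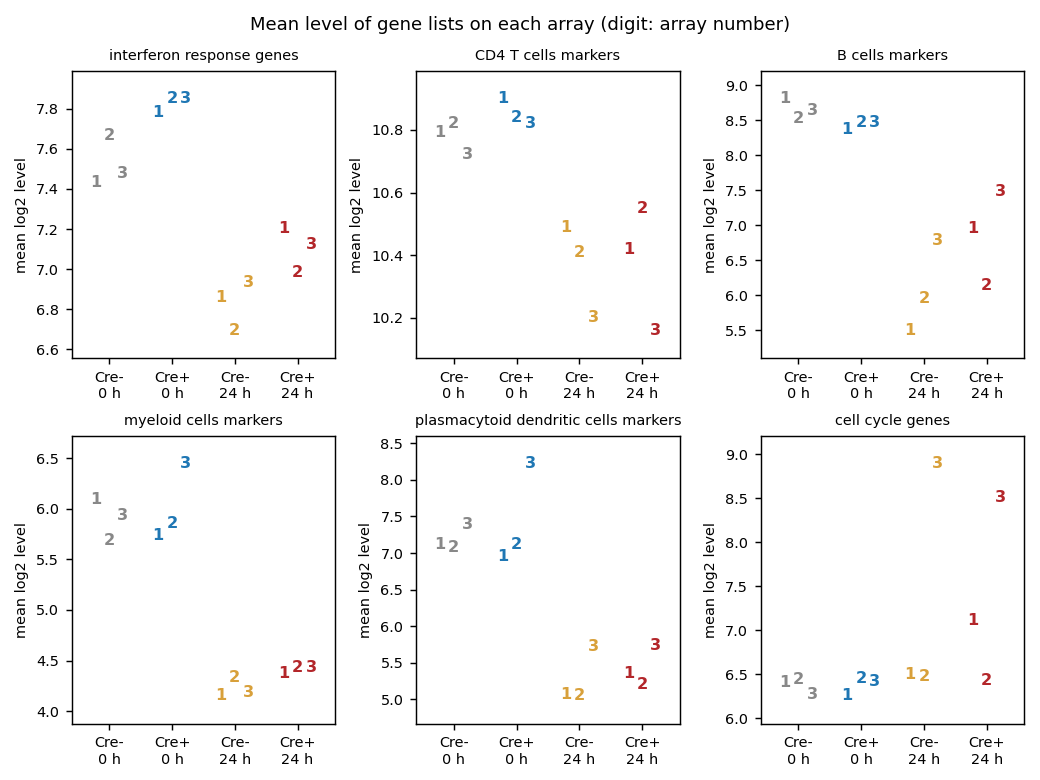
Mean log2 level on each array of the interferon response genes, of markers of 4 cell types and of cell cycle genes, in the 4 groups; digits are array numbers and each axis has its own range that does not start at 0. The interferon response genes, the B cell, myeloid and plasmacytoid dendritic cell markers are lower on the activated arrays, and the third activated arrays have the highest cell cycle means. The CD4 T cell markers are lower there too, at 10.16 to 10.55 against 10.72 to 10.9 at baseline.

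The arrays of a group also differed among themselves across the members. On the second Cre- baseline array 30 of 42 members were at their highest of the 3, and its mean over the members was 7.67, against 7.43 and 7.48. The Cre+ baseline means were 7.78, 7.85 and 7.85, all above it. After activation the means were 6.86, 6.69 and 6.93 in Cre- and 7.20, 6.99 and 7.12 in Cre+ cells, so the means did not overlap between the genotypes in either state. The medians over the members overlapped after activation, at 6.83, 6.55 and 7.19 in Cre- and 7.39, 6.88 and 7.27 in Cre+ cells. The median SD of the members was 0.149 in Cre- and 0.0886 in Cre+ baseline cells (0.134 and 0.128 over all genes), and 0.283 and 0.221 in activated cells (0.176 and 0.172 over all genes). Array-to-array spread was therefore wider for these genes than for all genes in activated cells of both genotypes.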

How the data were processed

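Biotin-labelled RNA of each sample was read on 1 Mouse Gene 2.0 ST array, per the labels' protocols. The authors deposited log2 values from RMA, run in affy 1.36.1 under R 2.15.1, per the submitters' processing notes. The sources used here give no chip definition file or build. RMA brings all arrays to 1 distribution, so a shift shared by most genes would not show.

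Of 25206 probe sets, 23185 pair with exactly 1 gene and were tested, and 2021 with no gene listed were left out. Group means were estimated in 1 model over all 12 arrays in limma 3.58.1 (R 4.3.3), with 8 residual and 3.553 prior degrees of freedom, 5 contrasts, and Benjamini-Hochberg adjustment over all genes; adjusted p under 0.05 passed. The fit was tested on simulated data. No depth exists for arrays, and their number limits the precision. Values on every array are given for members that passed between the genotypes, the 4 with the smallest p among those that did not pass in each genotype comparison, and the 6 largest passing changes with activation in each genotype; other members, pathway genes and markers may be named at any value. Array values of Trex1, Eif2ak2, Isg20, Ifit2, Uba7 and Ifng fall outside that rule and were chosen after their values were seen. The genes and lists were chosen with earlier results of these data known. The alternatives were a replicate block, array weights, other moderation, filters, scaling or call rules, the compared arrays alone, sex (read from Xist and Eif2s3y) as a covariate, and leaving out arrays. Ifi44 is not analysed here.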

Additional observations from a re-analysis of the deposited data

Results flagged for a closer look

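One gene met a criterion for a closer look. Ifnab, an interferon alpha gene of the pathway list, moved in opposite directions in the 2 states, with no overlap between the groups compared. It read 2.52, 2.29 and 2.85 in Cre- and 2.28, 1.88 and 2.09 in Cre+ baseline cells, and 1.95, 2.17 and 2.28 in Cre- and 2.43, 2.73 and 2.47 in Cre+ activated cells. The genotype difference was -0.47 at baseline and 0.41 after activation, and the change with activation was -0.42 in Cre- and 0.46 in Cre+ cells. The difference of the activation responses was 0.88 (SE 0.229), with an unadjusted limma p of 0.00253 and an adjusted p of 0.586, so it did not pass. All 12 values lie below the array medians, and the gene has near-identical copies.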

How the results depend on the processing

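Up to 23 alternatives were run for each result. No call changed sign under any of them. The median difference of the activation responses, -0.06, was above 0 with array weights (0.12), without Cre- baseline array 1 (0.01) and without Cre+ activated array 2 (0.02). At baseline 4 members passed between the genotypes with array weights (1.38% of all genes), 5 in a fit of the compared arrays alone (1.08%), and 1 to 3 when each array was left out in turn; leaving out any 1 of the 6 baseline arrays left Parp12 alone. After activation 21 passed with array weights, 0 with the compared arrays alone, 6 without activated array 3 of each genotype, and 2 to 6 when each array was left out. Requiring a 2-fold change left 12 of 22 members in Cre- and 13 of 24 in Cre+ activation, and leaving out each array gave 17 to 24 and 19 to 25. The median activation change in Cre- cells was -0.77 with array weights. Leaving out each array, the medians ran from 0.22 to 0.35 and from 0.15 to 0.22 between the genotypes (baseline, activated), from -0.71 to -0.40 and from -0.70 to -0.54 with activation (Cre-, Cre+), and from -0.13 to 0.02 for the difference of the responses. Apart from array weights and smaller sets of arrays, whose construction changes the spread that is estimated, the cause of these shifts was not tested. With the replicate number as a block (replicate block) 2 members passed at baseline and 3 after activation, where Herc6 joined with adjusted p = 0.0195, and 21 and 23 with activation. The share of all genes that passed is not given here for the replicate block or for leaving out single arrays. Those counts of members therefore cannot be set against all genes. Deviations of same-numbered arrays correlated from -0.0948 to 0.728, and the highest value was 0.0643, 0.571 and 0.728 for numbers 1, 2 and 3. The numbers come from the sample titles, which state no pairing, so the main fit took none. Whether some same-numbered arrays share an origin was not tested.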
